A study of Mus musculus with 6 samples.

Results

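The genes described here are 10 regulators of cell death and signalling through RIPK1, most of which write, read or remove its ubiquitin marks: the inhibitor of apoptosis proteins (IAPs) Birc2, Birc3 and Xiap, the ubiquitin regulators Tnfaip3, Cyld and Tnip1, the linear ubiquitin ligase genes Rnf31, Rbck1 and Sharpin, and Tab2. The genes were chosen by symbol, and every probe set that the annotation of the array pairs with exactly 1 of these symbols was taken. All 10 genes were on the array, with 23 of 45037 probe sets, and 18193 genes could be named in all. Gene expression was measured on 6 Affymetrix mouse genome arrays, 1 for each condition. The conditions were CNOT3-depleted mouse embryonic fibroblasts (MEFs) at 0, 6 and 12 h after addition of the transcription inhibitor actinomycin D (Act. D), and control MEFs at 0, 6 and 12 h. Both kinds of culture were primary fibroblasts from embryos with loxP-flanked CNOT3 alleles on both chromosomes, kept in puromycin for 2 days. Retrovirus carrying Cre recombinase gave the CNOT3-depleted MEFs (CNOT3KD), and a control retrovirus gave the control MEFs, whose genotype the labels call wild type. Each culture was an infected population and not a clone, and no number of embryos, nor their stage, is stated in the sources used here.

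With 1 array per condition there was no replicate, so no test or error is given, values are ratios between arrays, and their precision is limited by how few arrays there were. Each gene was read at its brightest probe set, that is, the highest in mean log2 signal across arrays. The fold at 0 h is the signal in CNOT3-depleted MEFs over that in control MEFs. The signal left is a percentage of the signal that the same culture had at 0 h. Stabilization divides the fraction left in CNOT3-depleted MEFs by that left in control MEFs, as log2, and is the mean of 6 and 12 h. Since the arrays were scaled to nearly the same trimmed mean, 493.9 to 497.1, the signal left is relative to the other transcripts on the array and can exceed 100%. As a scale for these values, the 2 brightest probe sets of a gene were compared in 5062 genes where both were at or above the median signal. Their stabilization differed by a median of 0.36 and their log2 fold by a median of 0.21, and stabilization had the same sign in 76.1% of the genes. Cnot3 itself had signals of 239.6, 128.4 and 82.9 at 0, 6 and 12 h in CNOT3-depleted MEFs, against 436.4, 192.5 and 197.8 in control MEFs, at its brighter probe set. The other Cnot3 probe set gave 226.7, 90.7 and 92.6 in CNOT3-depleted MEFs, against 203.6, 201.0 and 279.4 in control MEFs, which is no lower at 0 h, and the sources used here do not say whether either lies in the deleted part. All 12 fibroblast markers were at or above the median signal, while the endothelial markers Pecam1 and Tie1 were near background at 0 h and the other 4 of 6, Kdr, Tek, Cdh5 and Emcn, were not. Of 7 epithelial markers 4 were over 1.5-fold higher in CNOT3-depleted MEFs at 0 h, against 19.5% of all named genes. These were Krt8 (2.60-fold), Krt18 (2.06-fold), and Cdh1 and Krt14, which were both near background in control MEFs. Cldn4 was 7.65-fold lower, with a signal near background in CNOT3-depleted MEFs. Of 4 muscle markers 2 were over 1.5-fold higher at 0 h, among them Actc1 (2.76-fold). The 10 leukocyte markers had summed signals of 3855, 4384 and 5337 at 0, 6 and 12 h in CNOT3-depleted MEFs, against 2626, 4647 and 5444 in control MEFs. Lyz2 alone gave 1728 and 1157 of the sums at 0 h. At 0 h Cd68 (2.06-fold), Tyrobp (1.92-fold) and Cd14 (1.51-fold) were over 1.5-fold higher in CNOT3-depleted MEFs. Itgam was 3.10-fold lower, near background in both cultures. In bulk samples, fewer cells of a type and less RNA per cell cannot be told apart, and the part of other cell types in the results was not tested.

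When TNF binds its receptor, RIPK1 is recruited to the receptor complex and is covered with ubiquitin chains that keep it from starting cell death and that carry the signal to NF-kB. The proteins of Birc2 and Birc3 (cIAP1 and cIAP2) attach the early chains, and the linear ubiquitin chain assembly complex, made of HOIP (Rnf31), HOIL-1 (Rbck1) and SHARPIN, extends them with linear chains. TAB2 reads ubiquitin chains for the kinase TAK1. CYLD, a deubiquitinase, and A20 (Tnfaip3), which works with its partner ABIN1 (Tnip1), edit or remove ubiquitin chains, so that CYLD can also release RIPK1 for cell death. XIAP binds and inhibits caspases. Where these ubiquitin marks are lost, RIPK1 can pass on to caspase-dependent apoptosis or, with RIPK3 and MLKL, to necroptosis. Birc3, Tnfaip3 and Tnip1 are also known targets of NF-kB, so that their products feed back on the pathway that induces them.

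The promoters shown are those of Tnfaip3, Birc2 and Birc3. At the brightest probe sets of these genes the signal left was close between the cultures at 6 h and parted by 12 h. The promoters of the other genes in which a form of the NF-kB site was found (Cyld and Tnip1) are shown too. Each is given as the 160 bases before the start site, from RefSeq on GRCm38.p6. The RefSeq table held 15 promoters of 9 of the genes (all but Sharpin), each with 250 bases before and 50 after the start site, and 1 is shown per gene. Capitals mark a match to GGG, any 2 bases and TTTCC or, for Tnip1, to the looser form GGG, any 3 bases and TTCC, on either strand.
Tnfaip3 at chr10:19015411-19015570, minus strand: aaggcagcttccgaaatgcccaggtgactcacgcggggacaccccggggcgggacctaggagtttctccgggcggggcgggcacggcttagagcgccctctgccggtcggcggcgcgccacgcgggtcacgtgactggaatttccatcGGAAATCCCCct
Cyld at chr8:88696868-88697027, plus strand: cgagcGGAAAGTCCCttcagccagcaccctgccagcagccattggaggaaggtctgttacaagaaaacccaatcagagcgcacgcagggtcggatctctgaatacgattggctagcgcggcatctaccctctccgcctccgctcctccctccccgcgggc
Tnip1 at chr11:54962941-54963100, minus strand: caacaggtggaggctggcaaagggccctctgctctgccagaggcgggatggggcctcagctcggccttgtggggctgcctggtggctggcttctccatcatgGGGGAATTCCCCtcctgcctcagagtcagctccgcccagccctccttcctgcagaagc
Birc2 at chr9:7837058-7837217, minus strand: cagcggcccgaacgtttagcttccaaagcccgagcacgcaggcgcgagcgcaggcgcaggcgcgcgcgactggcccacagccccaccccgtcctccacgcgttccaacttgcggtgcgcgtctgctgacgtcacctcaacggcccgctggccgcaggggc
Birc3 at chr9:7873171-7873330, minus strand: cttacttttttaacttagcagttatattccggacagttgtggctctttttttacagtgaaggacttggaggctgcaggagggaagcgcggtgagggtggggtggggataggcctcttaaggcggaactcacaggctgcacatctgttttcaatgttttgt
The stricter form was in 535 of 32851 promoters (1.63%), and in 2 of the 15 promoters here. Its match in Tnfaip3 began 12 bases before the start site and that in Cyld 155 bases before it, both read on the strand opposite to the gene. The looser form, chosen after the matches were seen and covering every match of the stricter one, was in 1825 promoters (5.56%), among them both promoters of Tnfaip3 and those of Cyld and Tnip1. The Tnip1 match is a palindrome and was found on both strands, and the promoters of Birc2 and Birc3 held neither form. A match is a description of letters and not a site shown to be bound.

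At 0 h, 2 of the 10 genes were higher in CNOT3-depleted MEFs by over 1.5-fold and 0 were lower by over 1.5-fold. Over all 18193 named genes, 19.5% were higher and 15.7% were lower by this size. Of the 11062 genes at or above the median signal, as all 10 genes were, 12.4% were higher and 749 genes were lower. The higher genes were Birc3 and Tnip1, each 1.59-fold, while Xiap and Cyld were 1.41-fold and 1.48-fold lower. Among the 11062 genes at or above the median signal, 90.6% had a lower fold than Birc3 and likewise than Tnip1, and 7.3% had a lower fold than Cyld. The median log2 fold of the 10 genes was 0.04, against 0.06 over all genes.

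**Figure D1:**
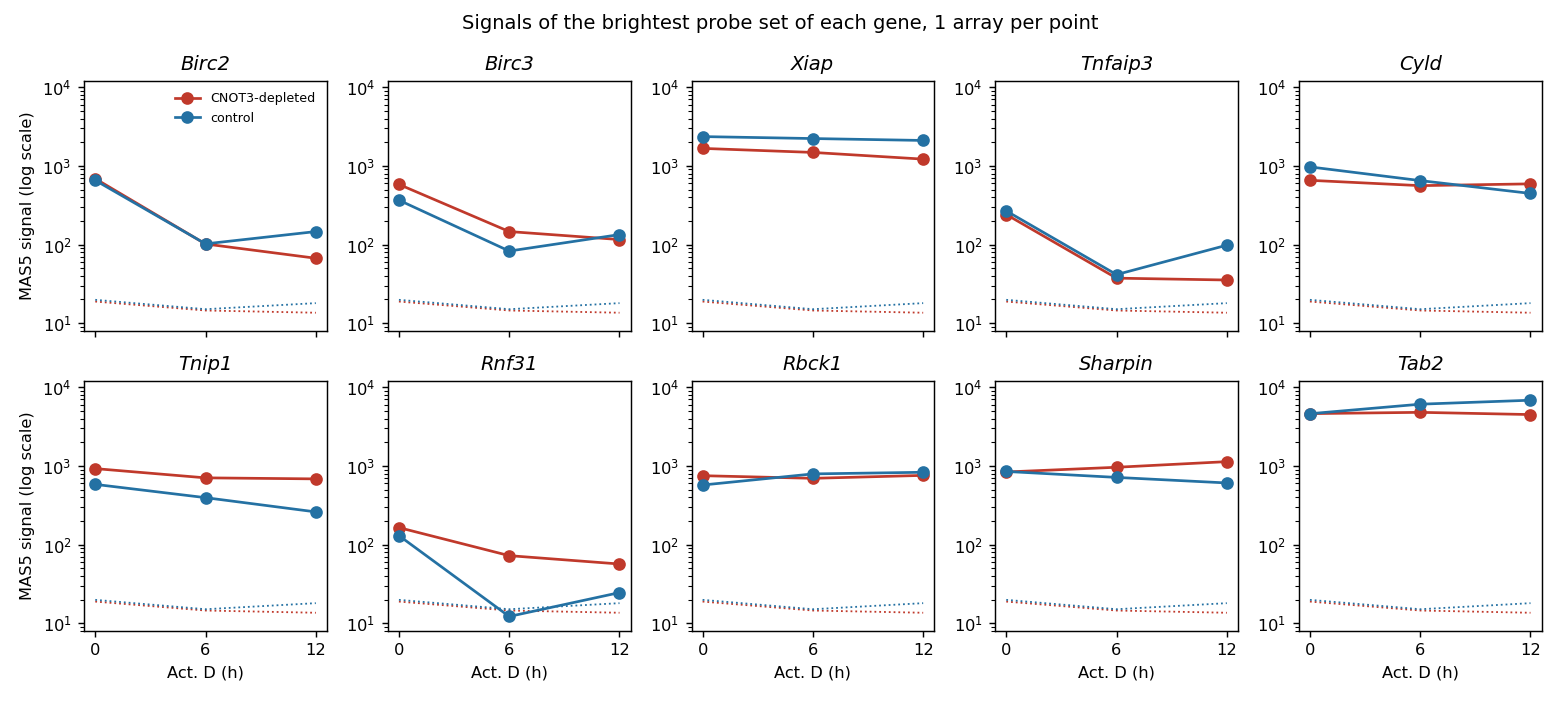
MAS5 signal (vertical axis, log scale) against hours of Act. D for the brightest probe set of each gene, with CNOT3-depleted MEFs in red and control MEFs in blue, 1 array per point. Dotted lines give the 25th percentile of each array, under which a signal was taken as near background. Birc2, Birc3, Tnfaip3 and Rnf31 lost most of their signal by 6 h, and in control MEFs these 4 genes were higher at 12 h than at 6 h.

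During Act. D, 4 of the 10 genes had at most 50% of their signal left at 12 h in CNOT3-depleted MEFs, and this held for 6 genes in control MEFs. The shares over all genes were 18.9% in CNOT3-depleted MEFs and 29.7% in control MEFs. Among genes at or above the median signal, as all 10 genes were, they were 16.8% and 38.0%. Birc2, Birc3, Tnfaip3 and Rnf31 were in both counts, and Cyld and Tnip1 were in that of control MEFs alone. The median signal left at 12 h over the 10 genes was 73.5% in CNOT3-depleted MEFs and 45.3% in control MEFs, against 95.1% and 72.8% over genes at or above the median signal. It was 79.6% in CNOT3-depleted MEFs and 75.9% in control MEFs with quantile normalization, and 65.8% and 27.3% under scaling on ribosomal protein genes. With the median over the probe sets of each gene the order turned, with 76.5% in CNOT3-depleted MEFs and 81.3% in control MEFs. The count of 6 genes in control MEFs was 2 with quantile normalization, where the share over all genes was 23.7%. It was 3 with the median over probe sets, for which no share over all genes is given. A gene counted as stabilized where its 0 h signal was at or above the median, its signal at 6 h in CNOT3-depleted MEFs was 0.5 to 2 times that at 0 h, and at both times the fraction left reached 2 times or more that of control MEFs. By this rule 0 of the 10 genes were stabilized, against 10.6% of 11062 genes. With the cultures exchanged the rule again took 0 of the 10, against 0.479% of genes. Stabilization was above 0 in 4 of the 10 (Rnf31, Sharpin, Cyld and Tnip1) and below 0 in 6. The median was -0.27 over the 10 genes, but 0.21 with 7 of 10 above 0 when arrays were scaled on ribosomal protein genes, a scaling that adds the same amount to every gene and moved the median of all genes to 0.51, against 0.02.

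**Figure D2:**
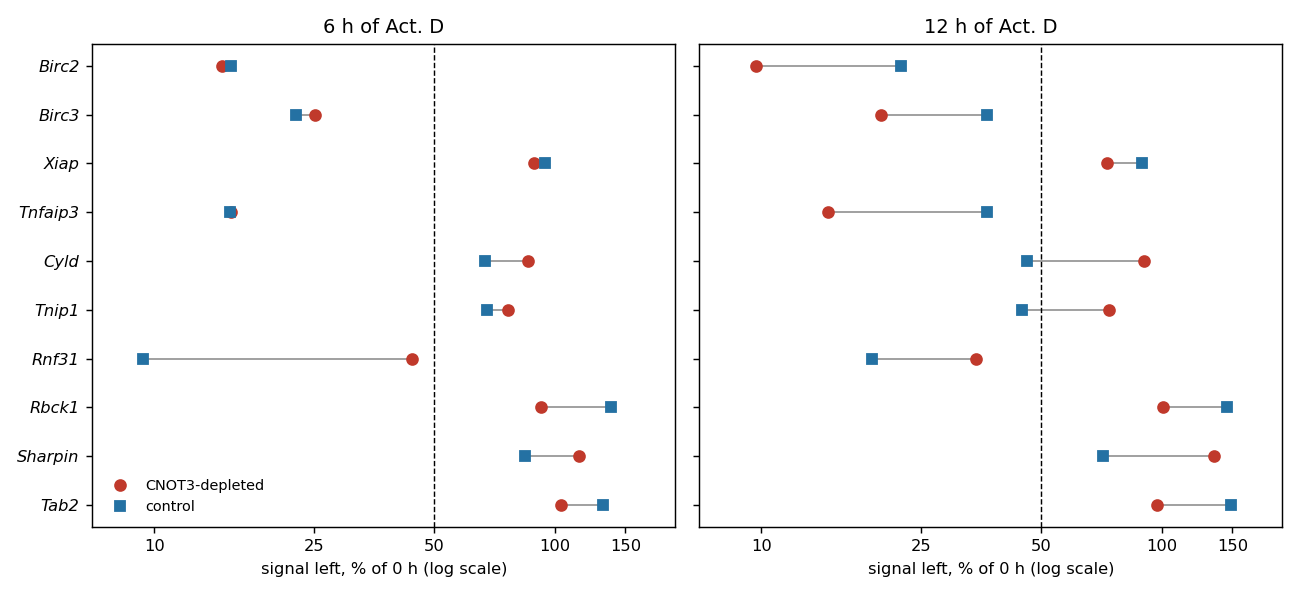
Signal left at 6 h (left panel) and 12 h (right panel) as a percentage of the signal at 0 h in the same culture, on a log scale, with red circles for CNOT3-depleted MEFs, blue squares for control MEFs and a dashed line at 50%. At 6 h the points of Birc2, Birc3 and Tnfaip3 lie close together, and at 12 h those of CNOT3-depleted MEFs lie to the left, at 9.72%, 19.9% and 14.7%.

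Birc2, the gene of cIAP1, was read by a lone probe set, 1418854_at. Its signals were 687.8, 101.5 and 66.9 at 0, 6 and 12 h in CNOT3-depleted MEFs, against 654.8, 102.0 and 146.1 in control MEFs. The cultures were close at 0 h, with a fold of 1.05, and at 6 h, with 14.8% left in CNOT3-depleted MEFs and 15.6% in control MEFs. They parted at 12 h, with 9.72% left in CNOT3-depleted MEFs and 22.3% in control MEFs, where the signal in CNOT3-depleted MEFs was 0.46 times that in control MEFs. Only 2.1% of genes at or above the median signal had less left at 6 h in CNOT3-depleted MEFs than Birc2, and 7.4% had less left in control MEFs. Its stabilization of -0.64 came almost wholly from 12 h, with -0.08 at 6 h and -1.20 at 12 h.

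Birc3, the gene of cIAP2, lies beside Birc2 in the genome, and whether their probe sets read both transcripts was not checked. At its brighter probe set, 1421392_a_at, the signals were 581.7, 146.1 and 115.6 in CNOT3-depleted MEFs, against 366.5, 82.6 and 133.7 in control MEFs. The gene was thus higher in CNOT3-depleted MEFs at 0 and 6 h and lower at 12 h. The signal left was 25.1% and 19.9% at 6 and 12 h in CNOT3-depleted MEFs, against 22.5% and 36.5% in control MEFs. Stabilization was 0.16 at 6 h and -0.88 at 12 h, with a mean of -0.36 that turned to 0.13 under the scaling on ribosomal protein genes. The dimmer probe set, 1425223_at, ran the other way at 0 h: it had 19.0, 22.8 and 6.1 in CNOT3-depleted MEFs, against 75.01, 20.8 and 86.3 in control MEFs, 3.94-fold lower at 0 h. In CNOT3-depleted MEFs this probe set was just above the 25th percentile of its array, 18.8, at 0 h and under it at 12 h. The higher signal of Birc3 at 0 h was thus seen at the brighter probe set alone.

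Tnfaip3, the gene of A20, had nearly the same course as Birc2. At probe set 1433699_at its signals were 240.8, 37.3 and 35.4 in CNOT3-depleted MEFs, against 267.5, 41.4 and 98.1 in control MEFs. At 6 h both cultures had 15.5% left, and at 12 h 14.7% was left in CNOT3-depleted MEFs and 36.7% in control MEFs. The cultures did not differ by more than 1.11-fold until 12 h, where the signal in CNOT3-depleted MEFs was 0.36 times that in control MEFs. Stabilization was 0.00 at 6 h and -1.32 at 12 h, and its mean of -0.66 was the lowest of the 10 genes, with 9.6% of genes lower. With quantile normalization Rbck1 (-0.91) and Birc2 (-0.73) were below Tnfaip3 (-0.63), and with a pseudocount of 16 Birc2 (-0.56) and Rbck1 (-0.54) were below it (-0.49). The dimmer probe set, 1450829_at, had 52.6, 14.8 and 26.3 in CNOT3-depleted MEFs, against 37.3, 42.5 and 28.5 in control MEFs, with a stabilization of -1.32. Both probe sets were thus below 0, by different courses.

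In the signal left at their brightest probe sets, Birc2, Birc3 and Tnfaip3 thus differed little between the cultures at 6 h and parted by 12 h. The dimmer probe sets of Tnfaip3 and Birc3 did not share this course. At 6 h that of Tnfaip3 had 28.2% left in CNOT3-depleted MEFs and 114% in control MEFs. Its 12 h signal was 1.77 times and 0.67 times that at 6 h, in the same order. That of Birc3 had 120% left at 6 h in CNOT3-depleted MEFs and 27.8% in control MEFs. At the brightest probe sets, the 12 h to 6 h ratio was 0.66 in CNOT3-depleted MEFs and 1.43 in control MEFs for Birc2. It was 0.79 and 1.62 for Birc3, and 0.95 and 2.37 for Tnfaip3. With Rnf31, 4 of the 10 genes were more than 1.3-fold higher at 12 h than at 6 h in control MEFs, and 0 were in CNOT3-depleted MEFs. The size of 1.3-fold was chosen after the values were seen. Over all genes, 16.2% in CNOT3-depleted MEFs and 29.8% in control MEFs passed it, and 5.23% and 18.7% did among the 11062 genes at or above the median signal, as all 10 genes were. Under 3 other scalings the count in control MEFs was 3 or 4 of the 10, and it was 0 of the 10 in CNOT3-depleted MEFs under each. The shares over all genes were then 18.1% to 27.9% in control MEFs and 13.2% to 20.0% in CNOT3-depleted MEFs. In control MEFs the ratio of Birc2 fell below 1.3, to 1.27 with each array divided by its median. It was 1.16 under the scaling on ribosomal protein genes. Over the 6 arrays Birc2 and Tnfaip3 lay 0.80 apart in centred log2 signal (Pearson r = 0.97), the third closest pair of the 10 genes. Closer were Rbck1 with Tab2 at 0.45 and Xiap with Tab2 at 0.71. Birc3 lay further off, at 1.33 from Birc2 and 1.41 from Tnfaip3. The genes most like Tnfaip3 among 11062 were Ier5l, Zfp868 and Sertad1, at distances of 0.41, 0.44 and 0.50 over the 6 arrays, which all genes share.

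Xiap, the gene of the caspase inhibitor, was lower in CNOT3-depleted MEFs on all 3 arrays at its brightest probe set, 1437533_at. The signals were 1669, 1483 and 1219 in CNOT3-depleted MEFs, against 2359, 2227 and 2106 in control MEFs. No array of CNOT3-depleted MEFs reached any of the control MEFs. The transcript was lost slowly, with 88.9% and 73.0% left at 6 and 12 h in CNOT3-depleted MEFs, against 94.4% and 89.3% left in control MEFs. Stabilization was -0.19, but 0.30 under the scaling on ribosomal protein genes. Probe set 1456088_at gave the same order, with 114.8, 126.1 and 118.3 in CNOT3-depleted MEFs, against 173.5, 197.8 and 182.1 in control MEFs, 1.51-fold lower at 0 h. Probe set 1450232_at differed, with 175.7, 165.2 and 138.8 in CNOT3-depleted MEFs, against 213.1, 114.7 and 94.98 in control MEFs, and a stabilization of 0.82. The other 4 of the 7 Xiap probe sets were near background on at least 1 array. With the median over all 7, the log2 fold at 0 h was 0.32 instead of -0.50, so the lower signal in CNOT3-depleted MEFs was seen at the 3 brightest probe sets and not over all of them.

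Cyld, the gene of the deubiquitinase, began lower in CNOT3-depleted MEFs and ended higher at its brightest probe set. At this probe set, 1429618_at, the signals were 655.4, 560.6 and 590.9 in CNOT3-depleted MEFs, against 970.9, 650.1 and 446.3 in control MEFs. The signal left at 6 and 12 h was 85.5% and 90.1% in CNOT3-depleted MEFs, against 67.0% and 46.0% in control MEFs. At 12 h the fraction left was 1.96 times that in control MEFs, and the mean stabilization was 0.66. The 3 other probe sets did not agree among themselves. Probe set 1429617_at gave 377.4, 363.2 and 410.7 in CNOT3-depleted MEFs, against 460.6, 427.4 and 341.5 in control MEFs, with a stabilization of 0.30. Probe set 1429201_at gave 306.1, 260.4 and 289.3 in CNOT3-depleted MEFs, against 386.3, 420.4 and 499.8 in control MEFs, with -0.40. The dimmest, 1445213_at, gave 53.3, 28.1 and 40.5 in CNOT3-depleted MEFs, against 40.6, 50.2 and 58.3 in control MEFs, with -1.08. The 3 brightest all had a lower 0 h signal in CNOT3-depleted MEFs, by 1.22-fold to 1.48-fold, so the probe sets of Cyld shared a sign at 0 h more than in their course under Act. D.

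Tnip1, the gene of the A20 partner ABIN1, was higher in CNOT3-depleted MEFs at every time. Its lone probe set, 1427689_a_at, had 924.2, 705.0 and 683.9 in CNOT3-depleted MEFs, against 582.3, 394.7 and 260.0 in control MEFs. The lowest array of CNOT3-depleted MEFs was above the highest of control MEFs. The signal left at 6 and 12 h was 76.3% and 74.0% in CNOT3-depleted MEFs, against 67.8% and 44.7% in control MEFs, and at 12 h the signal in CNOT3-depleted MEFs was 2.63 times that in control MEFs. Stabilization was 0.45, but -0.07 with quantile normalization.

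**Figure D3:**
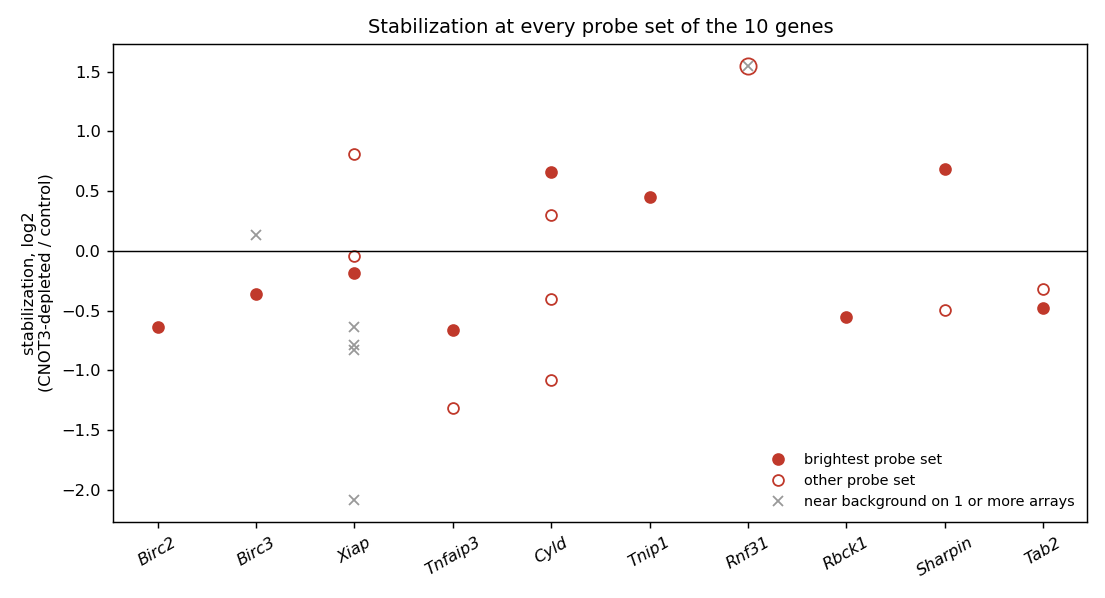
Stabilization (vertical axis, log2 ratio of the fraction left in CNOT3-depleted MEFs to that in control MEFs, mean of 6 and 12 h) for the 23 probe sets of the 10 genes. Filled circles are the brightest probe sets and open circles the others. Crosses mark probe sets near background on at least 1 array, and the ringed cross is the brightest probe set of Rnf31. Probe sets of Cyld lie from -1.08 to 0.66, and those of Sharpin at 0.69 and -0.49.

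The 3 genes of the linear ubiquitin chain assembly complex differed in their courses, and for Sharpin the course depended on the probe set. Rnf31, which encodes the catalytic subunit HOIP, lost most of its signal in both cultures, and more of it in control MEFs. Its lone probe set, 1455051_at, had 164.3, 72.2 and 56.6 in CNOT3-depleted MEFs, against 129.9, 12.2 and 24.5 in control MEFs. The signal left was 44.0% and 34.4% at 6 and 12 h in CNOT3-depleted MEFs. In control MEFs the 6 h signal was near background, so at most 11.6% was left at 6 h, and 18.8% was left at 12 h. Its stabilization of 1.55 was the highest of the 10 genes, with 88.9% of genes lower, and it was 1.40 with the 6 h signal set to the 25th percentile and 0.94 with a pseudocount of 16. With the deposited signals Rnf31 did not count as stabilized, by 2 parts of the rule. Its 6 h signal in CNOT3-depleted MEFs was under 0.5 times that at 0 h. Its fraction left at 12 h was 1.83 times that in control MEFs. With quantile normalization, and with each array divided by its median, Rnf31 was the 1 gene of the 10 that counted as stabilized. The genes most like it were Lnx2, Rin3 and Kbtbd7, at distances of 0.31, 0.42 and 0.47 over the 6 arrays.

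Rbck1, the gene of the complex member HOIL-1, kept its signal in CNOT3-depleted MEFs and gained in control MEFs. Probe set 1415792_at had 751.3, 695.3 and 757.6 in CNOT3-depleted MEFs, against 571.5, 791.3 and 830.4 in control MEFs. It was 1.31-fold higher in CNOT3-depleted MEFs at 0 h and slightly lower at both later times. The signal left was 92.6% and 101% at 6 and 12 h in CNOT3-depleted MEFs, against 138% and 145% in control MEFs. Stabilization was -0.55.

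Sharpin, the adaptor of the complex, was read by a pair of bright probe sets that opposed each other. At 1424165_a_at the signals were 837.7, 961.2 and 1134 in CNOT3-depleted MEFs, against 849.9, 714.4 and 607.1 in control MEFs. The cultures began level, with a fold of 0.99, and moved in opposite directions, with 115% and 135% left at 6 and 12 h in CNOT3-depleted MEFs, against 84.1% and 71.4% in control MEFs. At 1451267_at the signals were 636.8, 508.8 and 518.7 in CNOT3-depleted MEFs, against 504.6, 635.7 and 516.5 in control MEFs, and the 12 h signals were nearly equal. Like Rbck1, this probe set was higher in CNOT3-depleted MEFs at 0 h and lower at 6 h. Stabilization was 0.69 at the brighter probe set and -0.49 at the other. The annotation used here does not say which transcripts each reads.

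Tab2, the gene of the chain-reading adaptor of TAK1, had a course like that of Rbck1 at its brighter probe set. Probe set 1423462_at had 4624, 4802 and 4500 in CNOT3-depleted MEFs, against 4614, 6096 and 6847 in control MEFs. The cultures were equal at 0 h, with a fold of 1.002, and the control MEFs were higher later. The signal left was 104% and 97.3% at 6 and 12 h in CNOT3-depleted MEFs, against 132% and 148% in control MEFs. Probe set 1451003_at was lower in CNOT3-depleted MEFs at all 3 times, 0 h included, with 1214, 1180 and 1370 in CNOT3-depleted MEFs, against 1465, 1817 and 2023 in control MEFs. Stabilization was -0.48 and -0.32 at the 2 probe sets, but 0.01 at the brighter one under the scaling on ribosomal protein genes.

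The genes that act around these regulators were read from lists by role, each at its brightest probe set. The same pathway was covered by 4 lists that held 34 measured genes: the TNF receptor 1 complex, the TAK1, IKK and TBK1 kinases, other ubiquitin regulators, and the death complex with its caspases. Ripk1 itself was not analysed here. Stabilization was above 0 in 28 of these 34 genes, with a median of 0.39, and in 4 of the 10 genes above, with a median of -0.27. Of the 34, 6 (17.6%) counted as stabilized, against 10.6% of genes at or above the median signal, as all 34 were. Under the scaling on ribosomal protein genes the medians of the 4 lists were 0.83 to 1.58, and that of the 10 genes was 0.21. With quantile normalization it was above 0 in 3 of the 6 genes of the death complex, against 6 of 6 as reported. At 12 h the median signal left over the 34 genes was 96.3% in CNOT3-depleted MEFs and 39.1% in control MEFs. In control MEFs 2 of the 34 genes (5.88%) were more than 1.3-fold higher at 12 h than at 6 h. The share was 18.7% among genes at or above the median signal. Over all genes at or above the median signal, stabilization was above 0 in 55.9% and its median was 0.13. These shares are descriptions of lists, and their difference was not tested.

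In the TNF receptor 1 complex, stabilization was above 0 in 6 of 7 genes and its median was 1.097. Tnfrsf1a, the receptor itself, had signals of 2006, 1151 and 1145 in CNOT3-depleted MEFs, against 2019, 454.0 and 253.6 in control MEFs, a stabilization of 1.77, and was the 1 gene of the list that counted as stabilized. Traf5, an adaptor, followed with 1.37. Ube2n and Ube2v1, which together build ubiquitin chains, had 0.21 and -0.45.

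Among the kinases and their adaptors, stabilization was above 0 in 7 of 9 genes, and Tab3 and Tank counted as stabilized. Tab3, a close relative of Tab2, had 320.3, 214.5 and 124.5 in CNOT3-depleted MEFs, against 427.8, 84.3 and 33.0 in control MEFs. Its stabilization of 2.05 stood beside -0.48 for Tab2. Tank, an adaptor of TBK1, had 1.77. Map3k7, which encodes TAK1, had -0.12, and Tab1, its activator, had -0.01 with a control signal near background at 12 h.

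Among the other ubiquitin regulators, stabilization was above 0 in 9 of 12 genes. Tnip2, a relative of Tnip1, had 200.2, 142.3 and 102.9 in CNOT3-depleted MEFs, against 110.7, 16.4 and 17.6 in control MEFs, the last near background, and a stabilization of 1.98. Otulin, the deubiquitinase of linear chains, had 742.0, 721.8 and 680.6 in CNOT3-depleted MEFs, against 707.3, 342.0 and 258.5 in control MEFs, and was named after its values were seen because it and Tnip2 were the 2 genes of the list that counted as stabilized. Otud7b, another deubiquitinase, had a stabilization of 1.48. Rnf11, which works in a complex with A20, had -0.45, and Stub1, a ubiquitin ligase, had -0.24.

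In the death complex, Fadd, the adaptor of the death receptors, had a stabilization of 1.54 and counted as stabilized. Its signals were 398.5, 367.7 and 384.1 in CNOT3-depleted MEFs, against 393.3, 144.7 and 112.3 in control MEFs. Cflar, the gene of the caspase inhibitor FLIP, had 286.4, 226.7 and 158.0 in CNOT3-depleted MEFs, against 649.7, 294.6 and 211.8 in control MEFs, 2.27-fold lower at 0 h. Ripk3, the kinase of necroptosis, was 1.60-fold higher at 0 h with a stabilization of 0.04, and Mlkl, its target, had 0.06. The genes of this list that differed by more than 1.5-fold at 0 h were thus Ripk3 and Cflar, in opposite directions.

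**Figure D4:**
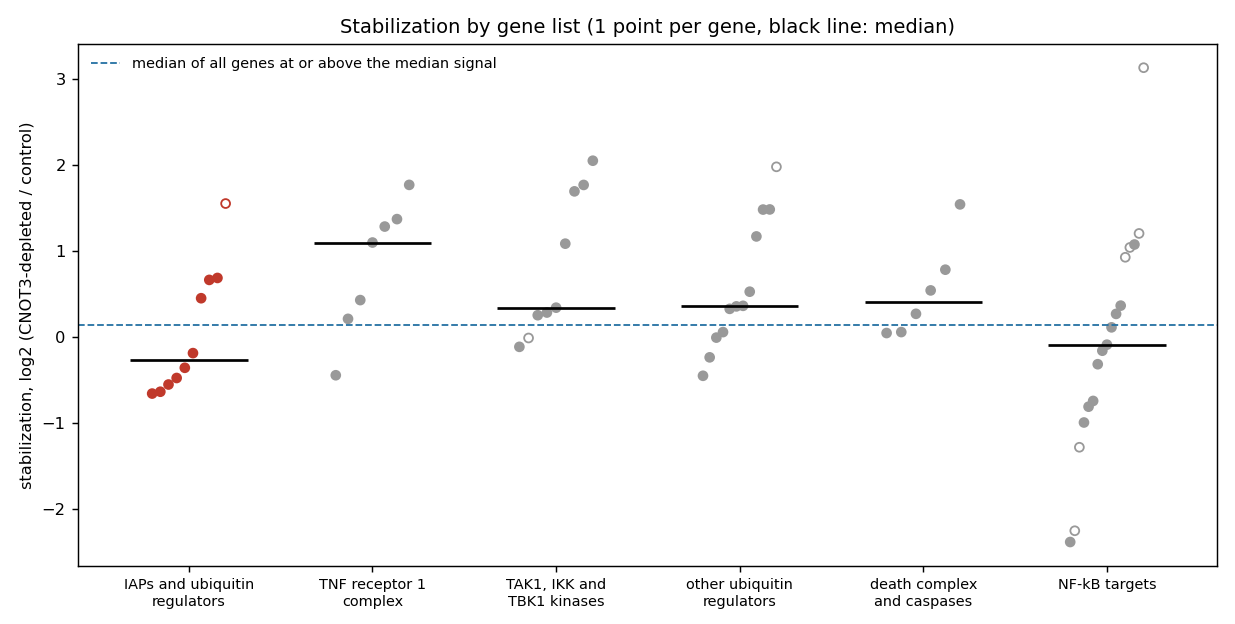
Stabilization (vertical axis, log2) of each gene at its brightest probe set, for the 10 genes (red) and for 5 lists of related genes (grey). Open circles are genes near background on at least 1 array, black lines are medians of the lists, and the dashed blue line is the median of all genes at or above the median signal, 0.13. The 10 genes have a median of -0.27, and the 4 pathway lists lie between 0.34 and 1.097. Under scaling on ribosomal protein genes these values are 0.21, and 0.83 to 1.58.

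The NF-kB targets, read at 17 other genes, had a median stabilization of -0.09 (0.40 under the scaling on ribosomal protein genes) and were above 0 in 8 of 17, with 0 stabilized. Of the 17, 13 were at or above the median signal, as the rule requires, and 10.6% of all such genes were stabilized. At 12 h, 8 of the 17 had at most 50% left in CNOT3-depleted MEFs and 7 in control MEFs. The shares over all named genes were 18.9% and 29.7%. At 0 h 3 of the 17 were higher and 3 lower by over 1.5-fold, against 19.5% and 15.7% of all named genes. Nfkbia, the inhibitor of NF-kB and a gene named after its values were seen, had 4368, 493.2 and 434.2 in CNOT3-depleted MEFs, against 4351, 686.1 and 870.0 in control MEFs. Like Birc2 and Tnfaip3 it was within 1.11-fold at 0 h and lower in CNOT3-depleted MEFs at 12 h. Among targets not near background at 0 h, the highest were Relb, with 3.13, or 2.23 with near-background signals set to the 25th percentile, and Rel, with 1.20, or 0.19 on that basis, which is no longer among the highest. The lowest were Nfkb2, with -2.39, and Bcl3, with -1.28 or -0.83. The list spread more widely than the 10 genes, in both directions.

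Genes that act on the IAPs or share their BIR domain were read at 9 genes, of which 7 were above 0 in stabilization and 0 were stabilized. Only 5 of the 9 were at or above the median signal, as the rule requires, and 10.6% of all such genes were stabilized. Of the 7, Naip2 and Naip5 were near background in CNOT3-depleted MEFs at 0 h and in control MEFs at 12 h. Birc6, a giant IAP, had 1789, 1845 and 1624 in CNOT3-depleted MEFs, against 2434, 1487 and 901.1 in control MEFs, with a stabilization of 1.02. Htra2, a protease that cleaves IAPs, had 0.97. Birc5, the gene of survivin, had 1588, 2094 and 1841 in CNOT3-depleted MEFs, against 4265, 6103 and 5268 in control MEFs, 2.69-fold lower at 0 h, with a stabilization of -0.10. Xaf1, which encodes a partner of XIAP and is induced by interferon, was named after its values were seen and had 1087, 1136 and 1001 in CNOT3-depleted MEFs, against 117.7, 73.1 and 101.5 in control MEFs, 9.23-fold higher at 0 h. Septin4, whose product ARTS antagonizes XIAP, was 2.02-fold higher at 0 h from low signals of 41.3 in CNOT3-depleted MEFs and 20.4 in control MEFs. Other interferon-stimulated genes were higher too, 13 of 16 of them by over 1.5-fold at 0 h, against 19.5% of all named genes. Of the 13, Mx1 and Mx2 were near background in control MEFs at 0 h. The summed signal of the 16 genes was 6607 in CNOT3-depleted MEFs and 2131 in control MEFs at 0 h. Their part in the values of the IAPs was not tested. Among the interferon-stimulated genes that were not near background at 0 h, Usp18 and Ifit1 had the highest stabilization, 3.75 and 1.72. Both rest on control signals near background, and with these set to the 25th percentile the values were 2.02 and 0.61, and that of Ifit1 was below other genes of the list. Of the same genes, Oas1a and Irf7 had the lowest, -0.60 and -0.56.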

How the data were processed

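RNA from 6 cultures was labelled with biotin from 500 ng of total RNA and hybridized to Affymetrix mouse genome arrays. The authors computed MAS5 intensity values per probe set on a linear scale, and the deposited values were used with no further scaling. The sources used here give neither the MAS5 version nor its scaling target. The lowest deposited signal is 1, and a signal below the 25th percentile of its array (13.6 to 19.8) was called near background. The platform annotation gave 1 symbol for 34945 probe sets, several for 932 and none for 9160. Symbols of 34741 probe sets were checked against RefSeq, and 0 differed.

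Folds, signal left and stabilization were computed with Python 3.11.15, numpy 2.4.6 and pandas 2.3.3, and figures with matplotlib 3.10.9. The scripts that count genes were tested on simulated data with known changes. Beside the 10 genes, the genes named are the 2 with the highest and the 2 with the lowest stabilization in each pathway list, among genes not near background at 0 h, the 3 nearest patterns of the genes with the highest and lowest stabilization, and Cnot3. Others were named after their values were seen. The genes, lists and rules were chosen with earlier results of these data known. The alternatives were quantile normalization, division by the array median, scaling on 49 ribosomal protein genes, a floor at the 25th percentile, a pseudocount of 16, other rules for choosing probe sets and other thresholds. The 12 h to 6 h ratio and its scalings, and the looser promoter motif, were added after seeing the data. Distances between patterns are Euclidean, on log2 signals minus their mean over the 6 arrays.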

Additional observations from a re-analysis of the deposited data

Results flagged for a closer look

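A pair of probe sets moved in opposite directions under Act. D in the cultures, by more than 1.1-fold at both times. The dimmest Cyld probe set, 1445213_at, had 52.6% and 75.9% of its 0 h signal left at 6 and 12 h in CNOT3-depleted MEFs, against 124% and 144% in control MEFs. The brighter Sharpin probe set, 1424165_a_at, had 115% and 135% left in CNOT3-depleted MEFs, against 84.1% and 71.4% in control MEFs. With 1 array per condition these differences were not tested, and another probe set of each gene gave a stabilization of the opposite sign.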

How the results depend on the processing

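No paired analysis was possible because the labels carry no replicate numbers and each condition had 1 array, so that no replicate could be left out either. A fit that treats the 3 times as replicates of a culture was not run, because it would take the difference in decay for error. The choice of probe set and the scaling set the limits of these values, and the causes of the shifts were not tested. Counts and medians over the 10 genes stayed within 1.5-fold of the value reported in 82 comparisons with an alternative and not in 14. The 82 include a filter at the 25th percentile at 0 h, which removed none of the 10 genes and so could not change a value. At the brightest probe sets, the floor at the 25th percentile changed only the 6 h signal of Rnf31 in control MEFs. Among the 82, the median stabilization still turned in sign, to 0.21 with scaling on ribosomal protein genes and to 0.08 at 6 h alone. With quantile normalization, 2 genes were lower at 0 h, against 15.0% of all genes. Under it 1 gene, Rnf31, was stabilized, against 7.78% of genes at or above the median signal. In control MEFs at 12 h, 2 genes then ended at 50% or less, against 23.7% of all genes, and the median over the 10 genes there was 75.9%. With each array divided by its median, 1 gene, again Rnf31, was stabilized, against 11.1% of genes at or above the median signal. With scaling on ribosomal protein genes, the median left at 12 h in control MEFs was 27.3%. With the median of the probe sets of each gene, 1 gene was higher and 1 lower at 0 h, 3 genes ended at 50% or less in control MEFs, and the median over the 10 genes there was 81.3%. The log2 fold of Birc3 then turned to -0.66, that of Xiap to 0.32 and the stabilization of Cyld to -0.050. With probe sets whose names carry no _s, _x or _a, 1 gene was higher and 1 lower, the log2 fold of Birc3 turned to -1.98 and the stabilization of Sharpin to -0.49. At 2-fold, 0 genes were higher at 0 h. With at most 25% left as the limit, 2 genes passed at 12 h in control MEFs. The share of all genes is not given for these limits, nor for the other choices of probe set. Those counts thus describe the 10 genes alone. The stabilization of Rnf31 was 0.94 with a pseudocount of 16.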
